A study of Mus musculus with 3 samples.

Results

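The subject is 7 transcription factor genes of the Sox family, Sox2, Sox4, Sox5, Sox6, Sox9, Sox10 and Sox11, chosen by name from the 32285 genes of the count matrices. Their RNA was followed across neural, glial, chondrogenic, osteogenic, mesenchymal and epithelial cells of the mouse palate. The cells came from palatal shelves, the outgrowths of the upper jaw that fuse to form the roof of the mouth. The 3 libraries were from wild-type C57BL/6J embryos of the stages E13.5, E14.5 and E15.5, named for the day of embryonic development, and every group shares this strain and genotype. Each library pooled tissue from 3 embryos, so embryo-to-embryo spread is not visible, and the 1 library per stage leaves no replicate. No test between stages or cell types was therefore run. All intervals below are 95% intervals that cover counting error only.

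Sox proteins bind DNA through an HMG box and bend it, and they act in groups that share sequence outside that box. Sox2 belongs to the SoxB1 group, which keeps neural progenitors and many epithelia in an immature state. Sox4 and Sox11 are SoxC genes of young neurons and other differentiating cells. Sox5 and Sox6 are SoxD genes, whose proteins lack a transactivation domain and act with partners. Sox9 and Sox10 are SoxE genes. Sox9 starts cartilage formation and works there with Sox5 and Sox6, and Sox10 marks neural crest cells, peripheral glia and melanocytes.

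The genes differ in build, and this bears on how they are counted. Sox2 (ENSMUSG00000074637) lies on chromosome 3 from 34650405 to 34652461 on the plus strand of GRCm38, the build that mm10 denotes, and has 1 exon in the GENCODE M21 annotation. Sox4 (ENSMUSG00000076431; chromosome 13, 28948919 to 28953713, minus strand) and Sox11 (ENSMUSG00000063632; chromosome 12, 27334264 to 27342574, minus strand) also have 1 exon each. Sox9 (ENSMUSG00000000567; chromosome 11, 112782224 to 112787760, plus strand) has 3 exons. Sox10 (ENSMUSG00000033006; chromosome 15, 79154908 to 79165240, minus strand) has 3 to 5 exons across its coding transcripts. Sox5 (ENSMUSG00000041540; chromosome 6, 143828425 to 144781977, minus strand) spans 953553 bases, and Sox6 (ENSMUSG00000051910; chromosome 7, 115470872 to 116038796, minus strand) spans 567925 bases. Sox2 lies inside the non-coding gene Sox2ot on the same strand, Sox5 overlaps Sox5it on its own strand, and the antisense genes of Sox5 and Sox6 overlap them on the other. How reads shared by such overlapping genes, or reads in introns, were counted is not given in the sources used here.

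The promoters of Sox2, Sox4 and Sox11 are shown because Sox2 had the highest fold of the members in epithelium and Sox11 the highest level in neurons, and Sox4 is the SoxC relative set beside Sox11; all 3 are single-exon genes. Each window runs from 250 bases before to 50 after the RefSeq transcription start (GRCm38.p6), which differs from the GENCODE start of the same gene. Capitals mark CCAAT, the box bound by NF-Y, and ACAAAG, a core motif of Sox proteins, on either strand, so that ATTGG and CTTTGT are the same motifs on the other strand; no match overlapped another. The table used here had windows for 5 of the 7 genes.
Sox2 (chr3:34649745-34650044, plus strand): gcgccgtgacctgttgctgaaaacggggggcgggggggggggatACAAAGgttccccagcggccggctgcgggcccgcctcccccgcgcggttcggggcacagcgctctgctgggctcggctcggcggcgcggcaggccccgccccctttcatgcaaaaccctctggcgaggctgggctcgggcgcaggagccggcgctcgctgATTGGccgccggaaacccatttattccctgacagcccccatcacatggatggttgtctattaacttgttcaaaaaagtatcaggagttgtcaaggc
Sox4 (chr13:28953650-28953949, minus strand): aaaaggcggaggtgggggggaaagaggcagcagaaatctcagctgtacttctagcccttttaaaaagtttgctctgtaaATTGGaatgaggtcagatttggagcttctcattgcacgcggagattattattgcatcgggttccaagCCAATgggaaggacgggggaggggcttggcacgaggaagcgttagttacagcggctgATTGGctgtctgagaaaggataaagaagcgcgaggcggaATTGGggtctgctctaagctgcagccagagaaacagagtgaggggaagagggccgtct
Sox11 (chr12:27342669-27342968, minus strand): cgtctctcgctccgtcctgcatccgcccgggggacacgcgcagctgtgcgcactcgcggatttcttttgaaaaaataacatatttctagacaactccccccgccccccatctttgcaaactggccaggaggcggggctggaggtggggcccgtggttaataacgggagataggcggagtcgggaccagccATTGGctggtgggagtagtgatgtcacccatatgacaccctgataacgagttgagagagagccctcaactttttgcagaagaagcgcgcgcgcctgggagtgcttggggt
The Sox4 window holds 4 CCAAT boxes and no ACAAAG, the Sox11 window holds 1 CCAAT box and no ACAAAG, and the Sox2 window holds 1 of each. Among all 32851 promoter windows of 300 bases in the table, 37.4% hold CCAAT and 18.7% hold ACAAAG. A match is a description of these letters and not a shown binding site.

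Cells were assigned by marker gates that use none of the Sox genes. A cell was given to the class whose markers were seen most completely, a marker being seen with at least 1 unique molecular identifier (UMI, 1 captured RNA molecule) and 3 seen markers being the minimum. Of 7917 cells, 6010 (75.9%) fell into a gate. The libraries held 11472663, 5293977 and 8313677 UMIs, with medians of 1614 to 1735 per barcode, and pairs of libraries shared 1 to 3 barcodes. The E13.5 library stands apart. Its neuronal gate held 45.4% of the cells (1628 of 3583), against 5.77% at E14.5 and 5.73% at E15.5, and its mesenchymal gate held 9.55%, against 57.8% and 62.1%. Among the neuronal cells at E13.5, 543 carried markers of GABAergic neurons and 131 carried markers of cortical excitatory neurons, which are brain cell types and not palate cell types; no cortical excitatory cell was found at the later stages. Neuronal markers were also raised in other E13.5 gates. Their summed level was 33.9% of that of the neuronal gate in the 16 myeloid cells, with 0 of 10 markers at 0, and 10.9% in the mesenchymal gate. At E14.5 and E15.5 it was 2.24% and 0.771% in the myeloid gate and 4.16% and 3.23% in the mesenchymal gate. The main comparisons with E13.5 are given beside E15.5 against E14.5 for that reason.

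**Figure D1:**
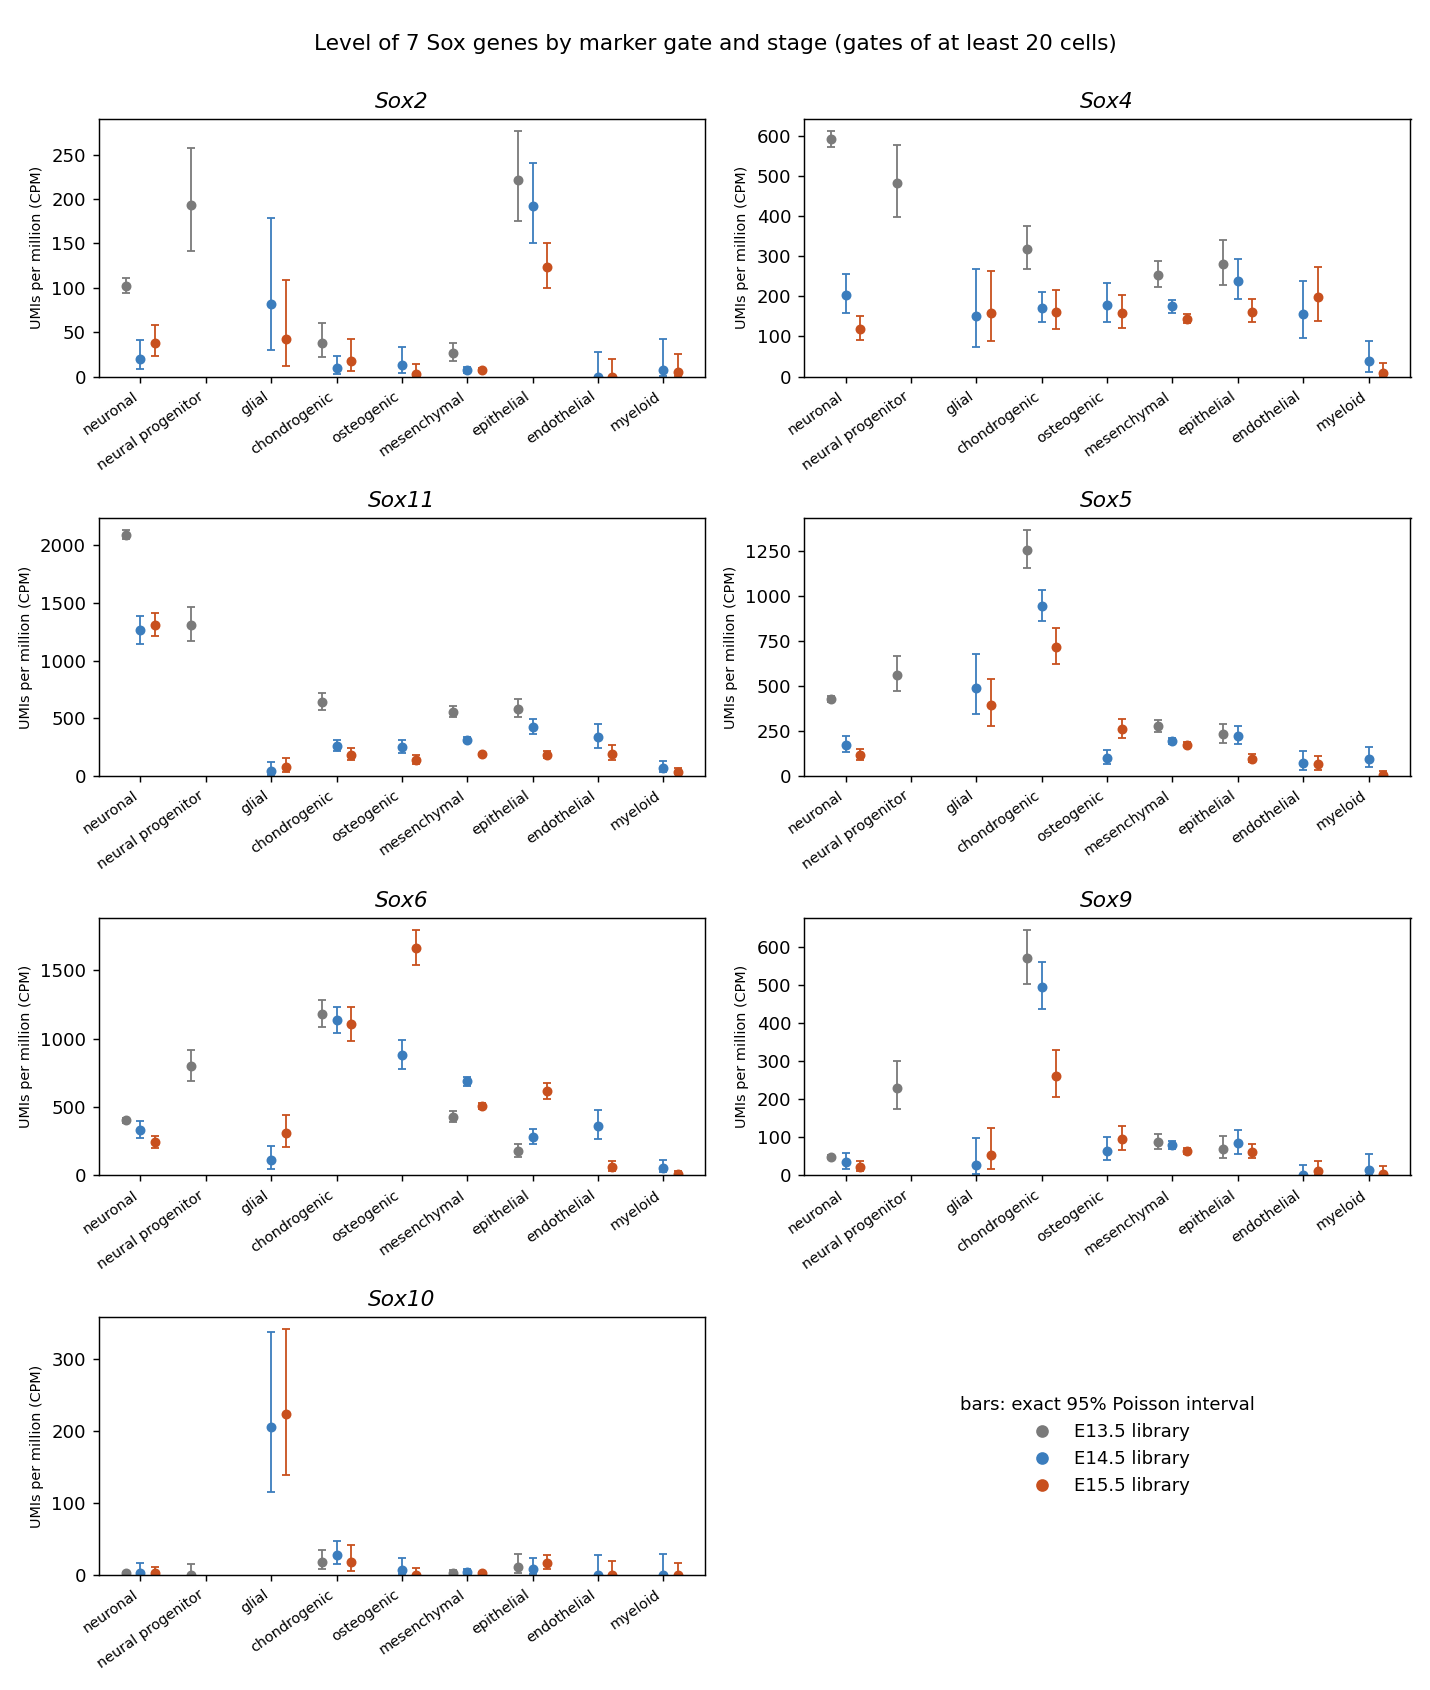
Level of each of the 7 Sox genes in UMIs per 1000000 (CPM, linear axis from 0, own scale per gene) in the marker gates of at least 20 cells. Grey, blue and orange points are the E13.5, E14.5 and E15.5 libraries, and bars are exact 95% Poisson intervals. Sox9 and Sox5 are highest in the chondrogenic gate at all stages, Sox11 in the neuronal gate, Sox2 in the epithelial gate and, at E14.5 and E15.5, Sox10 in the glial gate, whereas Sox6 is highest in the osteogenic gate at E15.5.

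The first comparison asks where the cartilage trio Sox9, Sox5 and Sox6 stood highest. Levels are given in CPM, a gene's UMIs per 1000000 UMIs of the cells summed, and 3 values in a row follow the order of the stages. In the chondrogenic gate (110, 104 and 50 cells) Sox9, the master gene of cartilage, stood at 572, 497 and 262 CPM. In the mesenchymal gate (342, 1012 and 1605 cells) it stood at 87.5, 80.1 and 64.0 CPM. The chondrogenic level was thus 6.53-fold the mesenchymal level in the E13.5 library (interval 5.11 to 8.43), 6.20-fold in the E14.5 library (5.14 to 7.49) and 4.09-fold in the last (3.12 to 5.30). The intervals of the chondrogenic gate stood clear of those of every other gate of at least 20 cells at each stage. With clusters in place of gates the E15.5 log2 ratio of Sox9 was 2.85 in place of 2.01. Next in order came the neural progenitor gate at E13.5, with 231 CPM, and after it neighbours in the order had overlapping intervals at each stage.

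Sox5 was also highest in the chondrogenic gate at each stage. Its chondrogenic level was 1259 CPM (1158 to 1367), 947 CPM (864 to 1036) and 717 CPM (621 to 823), against 279, 193 and 175 CPM in the mesenchymal gate. The fold between them was 4.52, 4.92 and 4.10, and as a mean over cells the last had a log2 ratio of 2.84 in place of 2.03. Sox6 was more widely spread. It stood at 1179, 1135 and 1104 CPM in the chondrogenic gate, nearly level over the stages, but also at 429, 686 and 505 CPM in the mesenchymal gate. Its fold was 2.75 (2.42 to 3.13), 1.65 (1.50 to 1.82) and 2.18 (1.93 to 2.46). Of the trio, Sox6 thus set chondrogenic cells apart least.

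Sox10 was low in chondrogenic cells but above its mesenchymal level, with 8, 14 and 5 UMIs, or 17.7, 27.9 and 17.9 CPM, against 2.01, 4.24 and 1.80 CPM. Glial markers summed to 2.36%, 4.15% and 4.49% of their level in the glial gate in these cells, with 3, 0 and 0 of 9 markers at 0, and 5, 4 and 6 of 6 melanocytic markers were at 0. The part of glial or melanocytic RNA in the Sox10 values was not tested. A Sox10 UMI was present in 3.30%, 10.4% and 10.5% of chondrogenic cells after thinning to 1500 UMIs. Sox4 and Sox11 were near their mesenchymal level in chondrogenic cells: the folds lay between 0.981 and 1.25 for Sox4 and between 0.830 and 1.16 for Sox11. At E13.5 a single chondrogenic cell held 104 of the 291 Sox11 UMIs and a cell held 46 of the 144 Sox4 UMIs. Sox2 at E15.5 (17.9 CPM) came from 5 UMIs of 1 cell, and without the cell with most Sox2 UMIs in each of the 2 gates its log2 ratio was -2.63 in place of 1.24.

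A gene was called where it was at least 2-fold higher with 1 CPM added to both levels, among genes with a mean of at least 5 CPM over the 2 gates. In the chondrogenic gate 4, 3 and 5 of 7 Sox genes were called in stage order, against 7.48%, 7.1% and 9.07% of all genes tested. The Sox10 and Sox2 calls among these rest on few UMIs. The median log2 ratio of the 7 genes was 1.46, 0.72 and 1.24, and that of all genes tested was 0.02, 0.01 and 0.04. Of 12 further cartilage genes that the gate did not use, 9 of 10, 10 of 11 and 10 of 11 tested were called. Col11a2, a cartilage collagen chain, was 46.8-, 97.8- and 112-fold higher, and Hapln1, which links aggrecan to hyaluronan, was 64.0-, 24.9- and 18.6-fold higher. Papss2, which makes the sulfate donor of cartilage matrix, was 28.5-fold higher at E13.5, and at E15.5 the matrix genes Matn3 (103-fold, 23.4 to 944) and Comp (334-fold, 53.7 to 13814) rested on 2 and 1 mesenchymal UMIs. Pth1r, the receptor of parathyroid hormone-related protein, was the tested gene that was not called, at 0.844- to 1.02-fold.

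**Figure D2:**
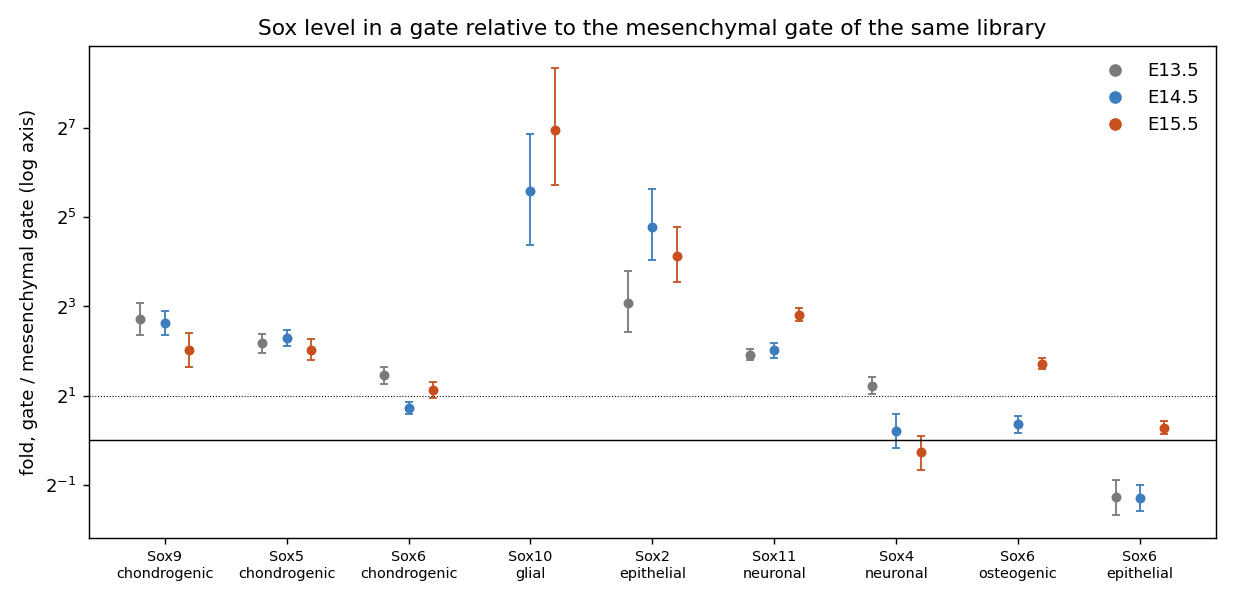
Fold of a Sox gene in the named gate over the mesenchymal gate of the same library (log axis; solid line 1-fold, dotted line 2-fold; bars are exact 95% intervals for counting error; colours are stages). Sox10 in glia reaches 48.3- and 124-fold and Sox2 in epithelium 8.49- to 27.7-fold, whereas Sox6 crosses from below to above 1 in the epithelium at E15.5 and exceeds 3-fold in osteogenic cells at that stage.

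Shares of cells were read after every cell had been thinned to 1500 UMIs, which left out 19, 27 and 12 shallower cells of the chondrogenic gate. Of those kept, a Sox5 UMI was present in 83.5% of cells (76 of 91), 66.2% (51 of 77) and 65.8% (25 of 38). Sox6 was present in 75.8%, 71.4% and 71.1%, and Sox9 in 45.1%, 49.4% and 36.8%. Without thinning the shares were 88.2%, 81.7% and 84.0% for Sox5 and 65.5%, 69.2% and 56.0% for Sox9. The myeloid gate, which should lack all 3 genes, served as background at thinned depth. There a Sox5 UMI was present in 1 of 11, 4 of 31 and 0 of 47 cells, a Sox6 UMI in 2 of 11, 3 of 31 and 0 of 47, and a Sox9 UMI in none. The exact upper limits of a count of 0 were 28.5%, 11.2% and 7.55% at these numbers of cells. Median depths were 2876.5, 2907.5 and 3203.5 UMIs in the chondrogenic gate and 2778, 1830.5 and 1876 in the myeloid gate. All 3 genes of the trio were seen together in 33 of 91, 24 of 77 and 11 of 38 chondrogenic cells, where unrelated detection would give 26.0, 18.0 and 6.54. In the mesenchymal gate all 3 occurred together in 6 of 240, 8 of 627 and 5 of 1021 cells, where unrelated detection would give 1.99, 3.80 and 2.47. The counts were thus above that number in both gates, and in the mesenchymal gate they were few.

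**Figure D3:**
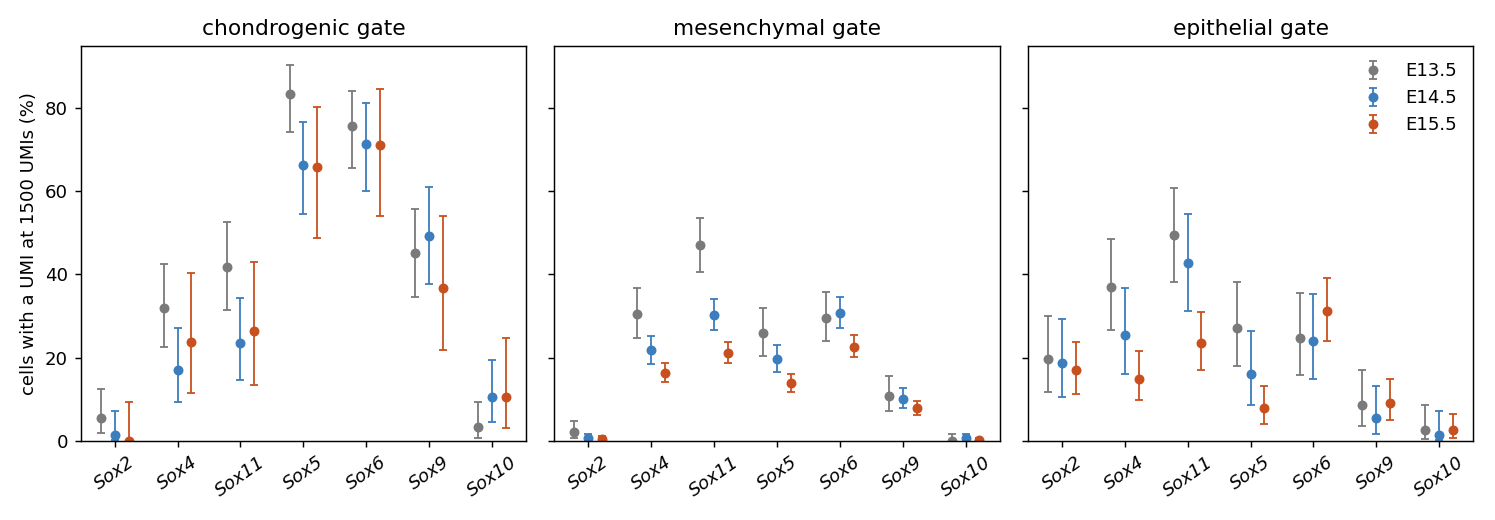
Share of cells with at least 1 UMI of each Sox gene after thinning to 1500 UMIs (percent, linear axis), in the chondrogenic, mesenchymal and epithelial gates. Colours are stages and bars are exact Clopper-Pearson 95% intervals. Sox5, Sox6 and Sox9 are seen in most or many chondrogenic cells, with Sox5 at 65.8% to 83.5%, while the mesenchymal share of Sox11 is 47.1%, 30.3% and 21.2% at the 3 stages.

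Sox6 also stood high in bone-forming cells, where Sox5 and Sox9 were below their chondrogenic levels. The osteogenic gate held 45 cells at E14.5 and 66 at E15.5, and 3 at E13.5, too few to use. There Sox6 stood at 879 CPM (777 to 990) and 1661 CPM (1535 to 1794), which was 1.28-fold (1.12 to 1.46) and 3.29-fold (3.01 to 3.59) the mesenchymal level. At E15.5 this was the highest Sox6 level of any gate of at least 20 cells, above the 1104 CPM (984 to 1234) of chondrogenic cells. Sox5 was lower in osteogenic than in mesenchymal cells at E14.5 (101 against 193 CPM, 0.524-fold) and higher at E15.5 (262 against 175 CPM, 1.50-fold, 1.21 to 1.85). Sox9 was within its counting error of the mesenchymal level at E14.5 (65.1 CPM, 0.813-fold, 0.486 to 1.29) and 1.49-fold at E15.5 (95.1 CPM, 1.03 to 2.10). Sox6 was called at E15.5, and none of the 7 tested members at E14.5; among all genes 7.94% were called at E14.5 and 5.93% a day later.

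Sox6 also differed inside the mesenchymal gate when its cells were divided by whether Runx2, the factor that commits cells to bone, had a UMI at thinned depth. This division was chosen after the gate levels had been seen. At E15.5 Sox6 stood at 951 CPM in 436 cells with a Runx2 UMI and at 147 CPM in 585 cells without one, a 6.45-fold difference (5.73 to 7.29). At E14.5 it stood at 1213 CPM in 270 cells and 206 CPM in 357 cells (5.88-fold, 5.13 to 6.77), and at E13.5 at 684 and 333 CPM in 58 and 182 cells (2.05-fold, 1.66 to 2.53). The 2 sets differ in makeup: the cluster with Runx2 among its leading genes held 123 of 270 cells with and 25 of 357 without a Runx2 UMI at E14.5, and 206 of 436 and 43 of 585 at E15.5. Among these cells Sox6 stood at 2012 against 237 CPM at E14.5 and at 1430 against 525 CPM at E15.5. Sox5 moved the same way over the whole gate with smaller folds, 1.29, with an interval that includes 1, then 2.00 (1.64 to 2.44) and 3.15 (2.67 to 3.73). Sox9 did not: its fold was 0.692, 0.994 and 0.706, and Sox11 was at 0.784-, 0.776- and 0.728-fold. Sox6 lay at the 99.8th percentile of all genes tested at E15.5, and 6.24% of genes differed at least 2-fold in either direction, 7.7% at E14.5 and 19.2% at E13.5. Sox2, Sox5 and Sox6 were the members called higher at E15.5, and Sox6 alone at E13.5 and E14.5; Sox2 rested on 18 and 11 UMIs.

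Runx2, Sox5 and Sox6 are all long genes, and RNA from other long genes was measured beside them. The 1074 other genes of at least 200 kb took 20.9% of UMIs in the cells with a Runx2 UMI at E15.5 and 17.3% in those without, and 19.1% and 17.2% at E14.5. At E13.5 these shares were 14.9% and 12.5%. Mitochondrial RNA took 0.574% and 0.520% at E15.5, and had the opposite order at E14.5 (0.433% and 0.460%) and E13.5 (0.494% and 0.591%). The part of these shares in the Sox6 difference was not tested. Divided instead by a UMI of Pax9, a factor needed for palate growth, Sox6 went the other way, at 0.810-fold (0.489 to 1.27), 0.476-fold (0.389 to 0.577) and 0.495-fold (0.421 to 0.579). Sox9 was higher in cells with a Pax9 UMI, at 2.26-fold (1.03 to 4.43), 1.76-fold (1.21 to 2.52) and 1.40-fold (1.02 to 1.90). Sox5 and Sox6 occurred together in 66 of 1021 mesenchymal cells at E15.5, where unrelated detection would give 31.9.

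**Figure D4:**
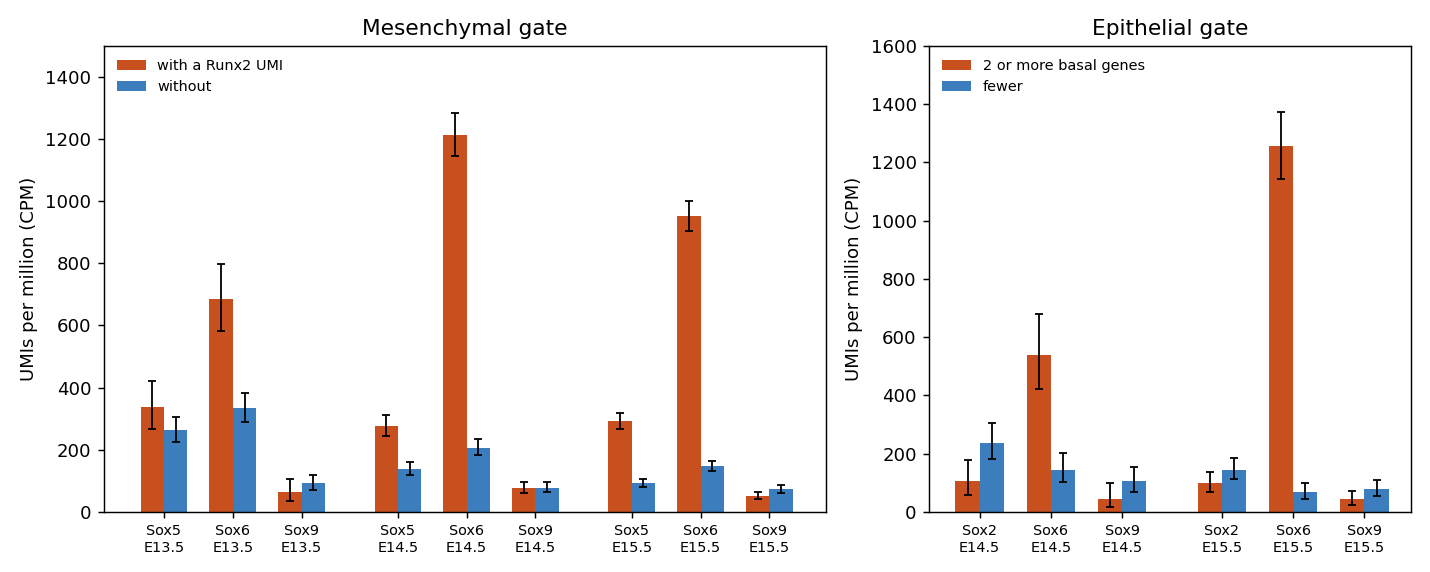
Left, Sox5, Sox6 and Sox9 in mesenchymal cells with (orange) and without (blue) a Runx2 UMI at each stage. Right, Sox2, Sox6 and Sox9 in epithelial cells with at least 2 (orange) or fewer (blue) of 4 basal genes at E14.5 and E15.5. Bars are CPM from 0 with exact 95% Poisson intervals; the Sox6 pairs are 1213 against 206 and 951 against 147 CPM in mesenchyme, and 539 against 145 and 1255 against 67.6 CPM in epithelium, at E14.5 and E15.5.

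In the epithelium Sox2 had the highest fold over mesenchyme of the members at each stage, though Sox11 and Sox4 stood at higher levels. The epithelial gate held 90, 86 and 194 cells, and the Sox2 level there was 222 CPM (176 to 277) at E13.5, followed by 192 CPM (150 to 241) and 123 CPM (100 to 150). The mesenchymal levels were 26.2, 6.93 and 6.98 CPM. The fold was 8.49 (5.39 to 13.8), 27.7 (16.3 to 49.3) and 17.6 (11.7 to 27.4). With clusters in place of gates the last was 5.02 on the log2 scale, in place of 3.96. The only cluster named epithelial was the one led by Krtdap, Krt13 and Krt5, so 5.02 covers that cluster alone. At thinned depth 19.8%, 18.7% and 16.9% of epithelial cells had a Sox2 UMI, against 2.08%, 0.638% and 0.490% of mesenchymal cells and 1 of 11, 1 of 31 and 1 of 47 myeloid cells. Without thinning the epithelial shares were 37.8%, 41.9% and 30.4%. The interval of the epithelial level overlapped that of neural progenitors at E13.5 and that of glia, on few UMIs, at the later stages. Pituitary markers, whose cells also carry Sox2, summed to 14.1, 28.9 and 621 CPM in the epithelial gate, with 3, 2 and 1 of 6 markers at 0, and their part in the Sox2 level at E15.5 was not tested. Sox2 and Sox9 were seen together in 0, 1 and 1 epithelial cells, where unrelated detection would give 1.38, 0.747 and 2.36, numbers too small to show a difference.

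Sox6 in the epithelium changed rank between the libraries. It stood at 177 CPM (136 to 227), 281 CPM (230 to 340) and, at E15.5, 615 CPM (562 to 672), so that E15.5 was 2.19-fold E14.5 (1.77 to 2.72) and 3.47-fold E13.5 (2.67 to 4.59). It was below the mesenchymal level at E13.5 (0.413-fold) and E14.5 (0.410-fold) and above it at E15.5 (1.22-fold, 1.10 to 1.34). The cells with at least 2 of the basal genes named below were 6 of 90, 31 of 86 and 99 of 194 in stage order, and Krt15 stood at 33.7, 384 and 610 CPM in the gate. In the remaining epithelial cells Sox6 had the opposite order, at 174 CPM (132 to 226), 145 CPM and 67.6 CPM. In clusters, where epithelium was the cluster led by Krtdap, Krt13 and Krt5 alone, the E14.5 log2 ratio was 0.10 in place of -1.28. The share of epithelial cells with a Sox6 UMI moved less, from 24.7% and 24.0% to 31.2%. Sox5 went the opposite way, from 233 and 223 CPM to 95.6 CPM, and Sox11 from 585 and 426 to 181 CPM.

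Sox6 was higher in basal than in other epithelial cells at E14.5 and E15.5. Epithelial cells were divided by whether at least 2 of Krt5, Krt14, Krt15 and Trp63, genes of the basal layer of stratified epithelium, had a UMI; this division also followed a view of the levels. At E15.5 Sox6 stood at 1255 CPM in 99 cells with at least 2 of these genes and at 67.6 CPM in 95 cells with fewer, an 18.5-fold difference (12.7 to 28.0). At E14.5 it stood at 539 CPM in 31 cells and 145 CPM in 55 cells (3.73-fold, 2.46 to 5.73). At E13.5, with 6 such cells, it stood at 206 and 174 CPM (1.18-fold, 0.417 to 2.74). The 2 sets also hold different epithelia: in clusters of all cells made without Sox genes, 26 of 31 cells of the basal set at E14.5 and 97 of 99 at E15.5 lay in a cluster led by Krtdap, Krt13 and Krt5, and 41 of 55 and 71 of 95 of the others in a cluster led by Bpifa1, Sult1e1 and Aox2. The other members were mixed. Sox4 was at 1.24-fold at E14.5 (0.789 to 1.92) and 1.52-fold at E15.5 (1.06 to 2.20), and Sox10, on 9 and 4 UMIs, at 2.63-fold at E15.5 (0.734 to 11.7), whereas at E14.5 it had 0 UMIs in the basal set and 3 in the others. Sox2 was at 0.449-fold at E14.5 (0.231 to 0.813) and 0.679-fold at E15.5 (0.437 to 1.04), Sox5 at 0.788- and 0.476-fold, Sox11 at 0.502- and 0.681-fold, and Sox9 at 0.436- and 0.567-fold with intervals that include 1. Without the cell with most Sox6 UMIs in each set the E15.5 log2 ratio was 5.29 in place of 4.19. With clusters in place of gates it was 0.92. Only the Krtdap cluster was named epithelial there, and the Bpifa1 cluster was named pituitary. The value of 0.92 thus leaves out most of the cells with fewer basal genes.

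Long genes took 10.1% of UMIs in the basal and 9.40% in the other epithelial cells at E15.5, and the median depths were 2516 and 3405 UMIs. The epithelium is diverse: 33.9% of genes differed at least 2-fold between its 2 sets at E14.5 and 30.5% at E15.5, and of the 7 members 1 was higher and 3 lower at E14.5, 2 higher and 1 lower at E15.5. Against the mesenchymal gate, 2, 1 and 2 of 7 members were called higher at the 3 stages, beside 11.8%, 16.1% and 16.5% of all genes, and 1, 1 and 0 lower (Sox6), beside 16.9%, 15.7% and 15.3%. Sox2 was called at every stage, as were Krt15 and Trp63. Krt5 and Krt14 were called too, but they are markers of the epithelial gate, so their excess there was built in. Sox10 was called at E13.5 on 4 UMIs and at E15.5 on 13 UMIs (16.3 CPM, 9.07-fold, 3.48 to 25.2). In clusters, where epithelium was the Krtdap cluster alone, the E13.5 log2 ratio was -2.76. Glial markers summed to 95.5, 52.5 and 65.4 CPM in the epithelial gate, with 4 of 9 at 0 at each stage, and their part in the Sox10 values was not tested.

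Sox10 set glia apart. The glial gate held 23 cells at E14.5 and 31 at E15.5, and Sox10 stood at 205 CPM (15 UMIs, 115 to 337) and 223 CPM (21 UMIs, 138 to 341). In 10 glial cells at E13.5 it had 4 UMIs. It was 48.3-fold (20.7 to 116) and 124-fold (52.6 to 323) above the mesenchymal gate, the highest folds among the members' comparisons with the mesenchymal gate. Adding 5 CPM in place of 1 gave a log2 ratio of 5.07 in place of 6.32 at E15.5. A Sox10 UMI was present in 35.3% and 40.0% of thinned glial cells, in 0.638% and 0.196% of mesenchymal cells, and in 0 of 31 and 0 of 47 myeloid cells. In the whole myeloid gate, also without a Sox10 UMI, the floor of 3 counts is 23.0 and 13.8 CPM and the upper 95% limit 28.3 and 16.954 CPM.

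Sox5 had the highest level of the members in glia, at 491 and 393 CPM (2.55-fold and 2.25-fold), and Sox2 stood at 81.8 and 42.5 CPM on 6 and 4 UMIs. Sox11, by contrast, had 3 and 7 UMIs in glia, which is 40.9 and 74.3 CPM and 0.131- and 0.398-fold the mesenchymal level. In all, 3 of 7 members were called higher at each stage, beside 19.8% and 21.3% of all genes, and 3 and 1 were lower, beside 29.5% and 24.4%. The lower ones were Sox11 at both stages and, at E14.5, Sox6 (109 against 686 CPM) and Sox9 (27.3 against 80.1 CPM, on 2 UMIs). The median log2 ratio of the members was -0.22 and 0.15. Of 10 glial genes outside the gate, 7 of 8 tested were called at E14.5 and 8 of 9 at E15.5, among them Ednrb, the endothelin receptor of neural crest cells, at 72.2- and 90.2-fold, Fabp7 at 16.8- and 97.2-fold, S100b at 17.1-fold at E14.5 and Cmtm5 at 43.2-fold at E15.5. Mia, the tested gene not called higher, went the other way. It had no UMI in glia against 18.1 and 16.7 CPM in mesenchyme, with log2 ratios of -4.26 and -4.14. The upper limits of its fold were 2.89 and 2.41, so these counts do not settle its direction. Mesenchymal markers summed to 53.2% and 39.3% of their mesenchymal level in the glial gate, with 1 and 4 of 10 at 0, and their part in these values was not tested.

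In neurons Sox11 had the highest level of the members at each stage. It stood at 2091 CPM (2055 to 2128) at E13.5, followed by 1262 CPM (1147 to 1386) and 1311 CPM (1216 to 1412). The fold over the mesenchymal gate was 3.77 (3.46 to 4.11), 4.04 (3.59 to 4.54) and 7.03 (6.35 to 7.78). At thinned depth 90.1%, 71.8% and 79.3% of neuronal cells had a Sox11 UMI. The myeloid gate had one in 6.45% at E14.5 and 2.13% at E15.5, but in 6 of 11 cells at E13.5, where neuronal markers were raised in that gate.

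Sox4, another SoxC gene, did not follow Sox11 at the later stages. It stood at 593 CPM in neurons at E13.5 (2.33-fold the mesenchymal level, 2.05 to 2.66), then 204 CPM (1.17-fold, 0.894 to 1.50) and 119 CPM (0.831-fold, 0.632 to 1.08). At E14.5 the 7 highest gates for Sox4 lay between 150 and 239 CPM and neighbours in that order overlapped. Myeloid cells were lowest, with 38.4 and 9.19 CPM. Sox2 in neurons was called at each stage (102, 20.1 and 37.3 CPM), and its E13.5 fold of 3.91 (2.64 to 6.04) overlapped that of Sox11, but 4 of its 7 UMIs at E14.5 were in 1 cell, and at thinned depth 0 of 71 and 0 of 111 neuronal cells of the later libraries had one. Epithelial markers summed to 4.53%, 15.8% and 24.2% of their epithelial level in the neuronal gate, with 0 of 10 at 0 at each stage, and their part in the Sox2 values was not tested. Called higher were 3, 2 and 2 of the 6 tested members, beside 12%, 18.2% and 18.3% of all genes. Lower were 0, 2 and 2, beside 14.2%, 18.2% and 18.3%, namely Sox6 (0.485- and 0.479-fold) and Sox9 (0.430- and 0.349-fold) at the later stages. The median log2 ratio of the members was 0.92, 0.04 and -0.42. Of 11 neuronal genes outside the gate, 10 of 11, 8 of 9 and 7 of 8 tested were called. Rtn1, a reticulon of the neuronal endoplasmic reticulum, was 12.0-, 40.6- and 72.9-fold higher. The other leading genes at E13.5 were the bHLH factors Neurod6 (80.3 against 2.01 CPM, 10.985- to 330-fold) and Nhlh2 (66.4 against 3.02 CPM, 7.47- to 107-fold). At E14.5 they were Stmn3, a stathmin (61.6-fold), and Sncg, a synuclein (72.0-fold, 22.3 to 369), and at E15.5 Sncg (139-fold) and Neurod1 (72.5-fold). Tead2, a Hippo pathway factor, was the tested gene not called, at 0.178- to 0.350-fold.

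Sox5 and Sox6 parted ways between neuron types at E13.5, a division made after the levels had been seen. GABAergic cells (543) held Sox6 at 679 CPM (648 to 712) and cortical excitatory cells (131) at 145 CPM (116 to 180), a 4.69-fold difference (3.76 to 5.90) at the 99.3rd percentile of genes tested. Sox5 had the reverse order, 428 CPM (403 to 453) in GABAergic and 768 CPM (699 to 843) in cortical excitatory cells, or 0.557-fold (0.499 to 0.623). Sox11 was also higher in the cortical set, at 3018 against 2027 CPM. Sox2 was 2.03-fold higher in GABAergic cells (126 against 62.2 CPM). Of 6 tested members, Sox2 and Sox6 were called, where 9.98% of all genes differed at least 2-fold. Long genes took 15.6% and 16.3% of UMIs in the 2 sets. With cells carrying markers of another lineage left out, the Sox6 log2 ratio was 3.28 in place of 2.22. With no doublets left out it was 1.78.

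**Figure D5:**
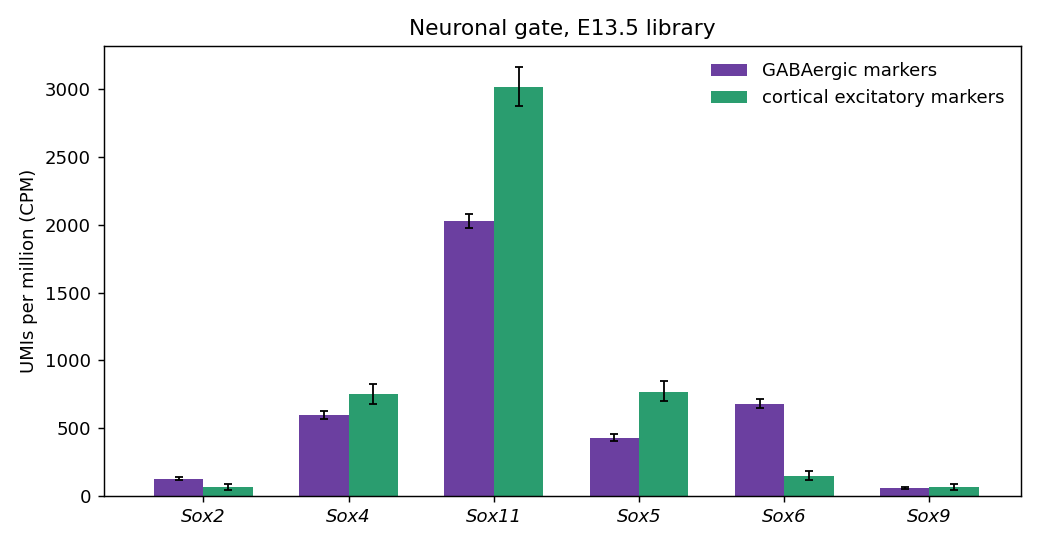
Level of 6 Sox genes in GABAergic (purple, 543 cells) and cortical excitatory (green, 131 cells) neurons of the E13.5 library, in CPM from 0 with exact 95% Poisson intervals. Sox6 is 679 against 145 CPM and Sox5 is 428 against 768 CPM, while Sox11 is above 2000 CPM in both.

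Later Sox6 values in neurons rest mostly on a single cell at E14.5 and in good part on a single cell at E15.5. One cell held 100 of the 116 neuronal Sox6 UMIs at E14.5 and another 67 of the 130 at E15.5. Without the cell with most UMIs of the gene in each library, the neuronal Sox6 level was 56.5 CPM in place of 333 at E14.5 and 125 CPM in place of 242 at E15.5. Likewise 38 of 61 Sox5 UMIs at E14.5 were in 1 cell, and without it the Sox5 level was 81.2 CPM in place of 175. With the top cell of each of the 2 later libraries left out, their order turned: E15.5 against E14.5 had log2 ratios of 0.19 for Sox5 and 1.13 for Sox6.

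The neural progenitor gate (58 cells, E13.5 alone) carried 5 of the genes at 193 CPM or more besides Sox4 at 482 CPM. Of these cells 44 had only the minimum of 3 markers. The cluster named neural progenitor held 586 cells at E13.5, so the gate leaves out most of them. Sox2 stood at 166 CPM in the 1301 ungated E13.5 cells. The part of progenitors in the neuronal values was not tested. In the gated progenitors Sox9 stood at 231 CPM (174 to 300) against 48.2 CPM in neurons, a 4.79-fold difference (3.52 to 6.41). Sox6 stood at 797 CPM (1.98-fold), Sox2 at 193 CPM (1.88-fold, 1.36 to 2.54) and Sox5 at 562 CPM (1.31-fold). Sox11 was lower than in neurons, at 1308 CPM (0.626-fold), and 1 cell held 83 of its 312 UMIs. Of 6 tested members 1, Sox9, was called, beside 14.8% of all genes, and 5 of 9 tested progenitor genes outside the gate were called, led by Fabp7, a fatty acid binding protein of radial glia, at 8.40-fold, Notch1 at 3.99-fold and Mcm2 at 3.21-fold.

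Between stages, the mesenchymal gate gave the deepest comparison. Sox11 stood at 555 CPM (510 to 604) at E13.5, then 312 CPM (291 to 334) and 187 CPM (174 to 200). E15.5 was 0.336-fold E13.5 (0.301 to 0.375) and 0.597-fold E14.5 (0.542 to 0.659). Between the 2 later libraries this was the 2.92nd percentile of all genes tested. Sox4 stood at 255, 175 and 143 CPM, with E15.5 at 0.821-fold E14.5 (0.727 to 0.928). Sox11 and Sox4 were thus lower at each later stage in the mesenchymal gate, whereas Sox12, the remaining SoxC gene, stood at 35.2, 42.0 and 37.4 CPM with overlapping intervals. Neuronal markers summed to 10.9%, 4.16% and 3.23% of their neuronal level in the mesenchymal gate, and their part in these values was not tested. The gate's makeup differed between stages: a cluster led by Gpr20, Klhl1 and Ccl21a held 56.7% of its cells at E13.5 and 5.14% and 4.74% later, and a cluster with Runx2 among its leading genes held 2.63%, 22.2% and 23.4%. Among the gate's cells in the first of these clusters Sox11 stood at 450, 245 and 138 CPM and Sox4 at 276, 140 and 121 CPM. Of 3 clusters with at least 20 cells of the gate at every stage, Sox11 was lower at each later stage in 3 and Sox4 in 2. Sox9 was also lower in 2, Sox5, Sox6 and Sox10 in 1 and Sox2 in 0. Of 7 such clusters at both later stages, Sox11 was lower at E15.5 in 7 and Sox4 in 6. In the cluster with Runx2, the exception, Sox4 stood at 136 CPM (107 to 170) and then 154 CPM (131 to 180). Sox5, Sox6 and Sox9 were also lower in 6, Sox10 in 5 and Sox2 in 4. Lower values at E15.5 were thus not particular to Sox11 and Sox4, and the share over all genes is not given here.

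Sox2 was 0.267-fold in E15.5 against E13.5 but 1.01-fold against E14.5 (0.546 to 1.91), so its difference lies between E13.5 and the rest. Sox5 was 0.908-fold (0.810 to 1.02), Sox6 0.736-fold (0.691 to 0.784) and Sox9 0.799-fold (0.666 to 0.960) in E15.5 against E14.5. Sox6 was highest at E14.5. Of 6 tested members 1, 0 and 2 differed at least 2-fold in E14.5 against E13.5, E15.5 against E14.5 and E15.5 against E13.5, all lower, beside 13.2%, 2.73% and 16.2% of all genes in either direction. Sox11 was higher in mesenchymal cells with a UMI of Top2a, a gene of dividing cells, at E13.5 (1.43-fold, 1.19 to 1.71) and E15.5 (1.61-fold, 1.37 to 1.89), and 1.03-fold at E14.5. Sox2 had a larger fold at E15.5, 7.47 (3.25 to 18.6), on 20 and 9 UMIs. Its folds at E13.5 and E14.5 were 1.82 and 0.709, with intervals that include 1.

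In the other gates E15.5 against E13.5 gave 3 of 7 members at least 2-fold lower in chondrogenic cells (33% of all genes in either direction), namely Sox2, Sox9 and Sox11. The Sox2 value at E15.5 rests on the 5 UMIs of 1 cell, and against E14.5 its log2 ratio was 0.79, or -2.85 without the top cell of each library. In epithelial cells 2 were lower, Sox5 and Sox11, and Sox6 was higher (27%). In epithelial cells with fewer than 2 basal genes Sox6 was lower, at 67.6 CPM against 174 CPM at E13.5. In neuronal cells 4 of 6 were lower, Sox2, Sox4, Sox5 and Sox9 (30.7%), where the neuron types differ between these libraries. Against E14.5 Sox2 in neuronal cells had a log2 ratio of 0.86, on 20 and 7 UMIs. Sox11 in E15.5 against E13.5 was 0.284-fold in chondrogenic and 0.310-fold in epithelial cells, beside 0.336-fold in mesenchymal cells. Neuronal markers summed to 18.0%, 6.08% and 4.14% of their neuronal level in the chondrogenic gate in stage order, with 0, 1 and 2 of 10 at 0, and to 6.45%, 7.14% and 2.70% in the epithelial gate, with 0, 0 and 1 at 0; their part in the Sox11 values was not tested. Against E14.5 the E15.5 values of Sox11 were 0.705-fold in chondrogenic, 0.425-fold (0.337 to 0.536) in epithelial and 1.04-fold (0.921 to 1.17) in neuronal cells. Sox9 in chondrogenic cells was 0.527-fold in E15.5 against E14.5 (0.400 to 0.686). Sox6 was level there, at 0.973-fold (0.844 to 1.12). In that gate chondrogenic markers summed to 7721 CPM at E14.5 and 5493 CPM at E15.5, and mesenchymal markers to 5087 and 7105 CPM. Their part in the Sox9 values was not tested.

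Over the 21 combinations of gate and stage with at least 20 cells, the members' levels were compared as log2(CPM + 1). The highest Pearson r among the 21 pairs of members was that of Sox5 and Sox9, 0.76, followed by Sox4 and Sox5 (0.74), Sox5 and Sox6 (0.72), Sox4 and Sox11 (0.72), Sox4 and Sox6 (0.68) and Sox6 and Sox9 (0.66). The lowest was that of Sox10 and Sox11, -0.25. High values thus occurred within Sox groups and between them. Among 8526 other genes, the closest pattern to Sox11 was that of Gng3, a G protein subunit of neurons (r = 0.93), and to Sox6 those of Sdk2 (0.93), Setbp1 (0.90) and Auts2 (0.88). Sox9 was closest to Iqcb1 (0.90), Ugdh (0.84) and Phgdh (0.84), Sox5 to Trim44 (0.87), Tafa2 and Zdbf2 (both 0.85), and Sox10 to Epb41l4b, Cryab and Gm10863 (all 0.86). Sox2 was closest to Bcas2 (0.90), Hmgn1 (0.86) and Bex1 (0.84), and Sox4 to Zfp618 (0.92), Zmym4 and Nkain3 (both 0.91), and Sox11 was next closest to Tox3 (0.93) and Zswim5 (0.92). The points of a stage share a library, so these values are descriptions.

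Of 12 other Sox genes looked at, 7 reached 20 CPM in some gate of at least 20 cells. Sox17 and Sox18, the SoxF genes of blood vessels, stood at 178 and 104 CPM in endothelial cells at E14.5 and 123 and 80.1 CPM at E15.5, and Sox7 of the same group at 59.4 and 48.1 CPM. The endothelial gate had no Sox9 UMI at E14.5 and 2 at E15.5. Sox21 stood at 71.3 CPM in neural progenitors and 36.5 to 39.4 CPM in epithelium, the 2 gates where Sox2 was highest at E13.5. Sox1 reached 54.5 CPM in neural progenitors, Sox12 at most 58.7 CPM (endothelial cells) and Sox13 at most 40.9 CPM (3 UMIs in glia). The remaining 5 genes stayed below 20 CPM.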

How the data were processed

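RNA of single cells was counted in 3 libraries with the 10x Genomics droplet method after methanol fixation. The values are unnormalized UMI counts for each gene and cell barcode, deposited by the authors from Cell Ranger 6.1.2 (named in the file headers), with mm10 as genome per the submitters' processing notes; the annotation and any counting of introns are not given in the sources used here. Barcodes with under 500 genes (544, 304 and 473) or over 20% mitochondrial UMIs (0) were left out. Scrublet (scanpy 1.11.5) called 0, 3 and 2 doublets, too few for a working caller; instead, cells with the top doublet scores were removed, 0.8% per 1000 cells (109, 25 and 56 cells). This left 3583, 1750 and 2584 cells.

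Cells were gated with 114 markers of 14 classes. Chondrogenic, osteogenic and mesenchymal cells were divided within 1 lineage: a cell was chondrogenic with at least 3 chondrogenic markers, otherwise osteogenic with at least 2 osteogenic markers. Gate names rest on RNA alone. UMIs were summed per gate, with exact Poisson intervals for levels, exact Clopper-Pearson intervals for shares (after thinning to 1500 UMIs; shallower cells left out) and exact conditional intervals for folds, all 95% and computed with scipy 1.17.1. A log2 ratio has 1 CPM added to both values, and the floor of a count of 0 is 3 counts. The members, the gene lists and the cuts of gates were chosen with earlier results of these data known. Named genes are the 7 members, other Sox genes reaching 20 CPM, the 3 genes closest to each member among genes with at least 50 CPM at 1 point, and the 3 genes of each list with the largest log2 ratio at a stage; Pth1r, Mia and Tead2 were named after their values were seen. Of the 32285 gene identifiers, 99.6% were in GENCODE M21. The scripts were tested on simulated data. Alternatives covered the gates, filters, doublets, Leiden clusters made without Sox genes, thinning and the pseudocount.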

Additional observations from a re-analysis of the deposited data

Results flagged for a closer look

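For 2 genes the stages differed in opposite directions in 2 gates, each with a log2 ratio of at least 0.5 in size and a counting interval that leaves out 1. The difference between the gates was not tested, since there is 1 library per stage. The log2 ratio of Sox5 in E15.5 against E14.5 was 1.37 in the osteogenic gate, where it stood at 101 and then 262 CPM. It was -1.22 in the epithelial gate and -0.57 in the neuronal gate. In the latter 38 of 61 UMIs at E14.5 were in 1 cell, and without the top cell of each library the ratio was 0.19. The osteogenic gate also differed between these libraries. Osteogenic markers summed to 4484 and then 2350 CPM, median depths were 2957 and 5105 UMIs, and long genes took 15.9% and 19.1% of UMIs. Their part in the Sox5 values was not tested. Sox6 in E15.5 against E13.5 had a log2 ratio of 1.79 in the epithelial gate and -0.73 in the neuronal gate. Epithelial cells with at least 2 basal genes were 6 of 90 at E13.5 and 99 of 194 at E15.5. In the remaining epithelial cells Sox6 had the opposite order, at 174 and 67.6 CPM. At E15.5, 67 of the 130 neuronal Sox6 UMIs were in 1 cell; without the top cell of each library the ratio was -1.66, and the neuron types differ between these libraries.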

How the results depend on the processing

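No paired analysis was possible because each stage has 1 library and the labels give no replicate numbers. Values here are log2 ratios. Across all alternatives, 2043 of the recomputed log2 ratios kept their direction and stayed within the counting interval of the value reported, 255 moved beyond it and 12 that were at least 2-fold changed sign. For Sox2 in chondrogenic against mesenchymal cells at E15.5 the ratio was -1.75 with Leiden clusters, -2.06 with cells carrying markers of another lineage left out, -1.16 as a mean over cells and -2.63 without the cell with most UMIs in each gate, a setting added after seeing the data. Sox10 was 2.04 in neural progenitor against neuronal cells with 2 markers as the minimum, -2.76 in epithelium at E13.5 and 0.19 in mesenchymal cells with against without a Runx2 UMI at E15.5 with clusters, and 1.37 in myeloid cells at E14.5 with no doublets left out. Sox6 in epithelium at E14.5 was 0.10 with clusters. In the cluster values for Sox6 and Sox10, epithelium was the cluster led by Krtdap, Krt13 and Krt5 alone. Without the E13.5 library, Sox2 was 0.0095 in mesenchymal, 0.79 in chondrogenic and 0.86 in neuronal cells, and in mesenchymal cells Sox4 was -0.28, Sox11 -0.74, Sox5 -0.14 and Sox6 -0.44 (0.24 with E13.5).

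For the leading comparisons at E15.5, 2 markers as the minimum gave 1.80 for Sox5 and 1.59 for Sox9 in chondrogenic cells, -0.36 for Sox5 between stages in mesenchyme and 2.95 for Sox6 by Runx2; 4 markers gave 4.98 for Sox6 in basal cells. Clusters gave 2.55 for Sox5 and 2.85 for Sox9 in chondrogenic cells, 3.35 for Sox11 in neurons, 5.02 for Sox2 in epithelium, -0.89 for Sox5 and -0.90 for Sox9 between stages in mesenchyme, and 2.92 for Sox6 by Runx2. Clusters also gave 0.92 for Sox6 in basal cells, in place of 4.19. In clusters, epithelium was the Krtdap cluster alone, so the Sox2 and Sox6 values there cover other cells than the gate. Leaving out cells with markers of another lineage gave 2.49 for Sox5, 1.31 for Sox6 and 2.60 for Sox9 in chondrogenic cells, 3.31 for Sox11, 4.89 for Sox2 and 3.28 for Sox6 in GABAergic against cortical cells, which was 1.78 with no doublets left out. Means over cells gave 2.84 for Sox5, 2.72 for Sox9 and 3.26 for Sox11. Adding 5 CPM gave 3.42 for Sox2 in epithelium and 5.07 for Sox10 in glia. Without the cell with most UMIs in each set, Sox6 in basal cells was 5.29. Causes of these moves were not tested. Depth limits Sox10 and, outside epithelium and neural cells, Sox2: a gate of 20 to 60 cells cannot show levels under its floor of 3 counts.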
